A study of Rattus norvegicus with 12 samples.

Results

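The genes described here are 186 hippocampal transcripts that stood higher in every chronically stressed library than in any unstressed one, and that remained raised when the stressed rats also received fluoxetine or albiflorin. They were chosen from the deposited FPKM values (reads per kilobase of transcript and per fixed number of reads of the library) by 4 criteria. A gene had to carry a rat Ensembl ID and average at least 1 FPKM over 12 libraries, which 12750 of 28959 rows of the table did. The lowest of its 9 stressed libraries had to exceed the highest of its 3 unstressed libraries. Its mean in stressed, saline-treated rats had to be at least 1.5 times the unstressed mean. Its mean under each drug had to reach at least the midpoint between those 2 means, that is, 50% of the stress difference had to be present. The 186 genes make up 1.5% of the 12750 expressed Ensembl rows.

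The 12 libraries were made from hippocampal RNA of Sprague Dawley rats with a stated age of 6 to 7 weeks, 3 libraries for each of 4 groups. Rats of the Ctrl-Sal group had no stress and were given saline. Those of the CUMS-Sal, CUMS-Flx and CUMS-Alb groups all spent 5 weeks under chronic unpredictable mild stress (CUMS), and for its final 7 days they were given saline, fluoxetine or albiflorin. Albiflorin was given at 7 mg/kg/d. The sample labels give fluoxetine as 10 mg/kg/d while the series text gives 7 mg/kg/d, so the doses of the drugs may or may not have been equal. Unstressed rats given a drug are not among the groups, so a drug was seen only on top of stress. The labels do not say whether the stated age was before or after the stress, or whether each library stands for a separate rat. A p-value here therefore reflects the variation among libraries, and some of that may be technical.

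The hippocampus is a forebrain structure needed for forming memories of events and places, and it is rich in receptors for the glucocorticoid hormones that the adrenal gland releases under stress. Through these receptors, which act as transcription factors, it takes part in the feedback that ends the hormonal stress response, and long stress is known to alter its dendrites, the birth of new neurons and its gene expression. CUMS exposes animals to a changing series of mild stressors and is used as a rodent model of depression. Fluoxetine blocks the reuptake of serotonin and is a standard antidepressant, and albiflorin is a glycoside of the monoterpene class found in the roots of peonies.

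The genes are described by level, length and rank. The deposited table carries Ensembl IDs without names, and 0 of these IDs could be matched to a symbol, so no pathway, cell type marker or promoter could be read from them, and the labelled tissue was not checked against marker genes. Depth was 14735953 to 18109623 reads per library. Of the libraries, Ctrl-Sal replicate 2 and CUMS-Flx replicate 1 stood apart in ways that touch the results. A further 9 genes, none of them among the 186, each had more than 1% of the reads, and together these held 22.02% of the reads in Ctrl-Sal replicate 2 and 18.82% in CUMS-Flx replicate 1. They held 20.39% and 17.44% in the other Ctrl-Sal libraries, 14.75% to 15.04% in CUMS-Sal, 15.53% and 15.25% in the other CUMS-Flx libraries and 14.62% to 15.59% in CUMS-Alb. With the values rescaled to the reads outside these 9 genes, 126 genes met the rule, 115 of them among the 186 (61.8%).

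In total, the 186 genes rose from a small share of the transcriptome to a somewhat larger one. They took 0.569% ± 0.136 (SD, n = 3) of the reads in Ctrl-Sal, 0.916% ± 0.0627 in CUMS-Sal, 0.842% ± 0.0914 in CUMS-Flx and 0.904% ± 0.0454 in CUMS-Alb. By library, the share was 0.631%, 0.413% and 0.663% in Ctrl-Sal replicates 1 to 3. It was 0.846%, 0.967% and 0.934% in CUMS-Sal, 0.740%, 0.868% and 0.917% in CUMS-Flx and 0.930%, 0.929% and 0.851% in CUMS-Alb. Ctrl-Sal replicate 2 was the lowest of all libraries, and CUMS-Flx replicate 1 was the lowest of the stressed ones. That every stressed library lay above the unstressed ones follows from how the genes were chosen. In whole tissue, more cells that express a gene and more of its RNA per cell cannot be told apart.

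**Figure D1:**
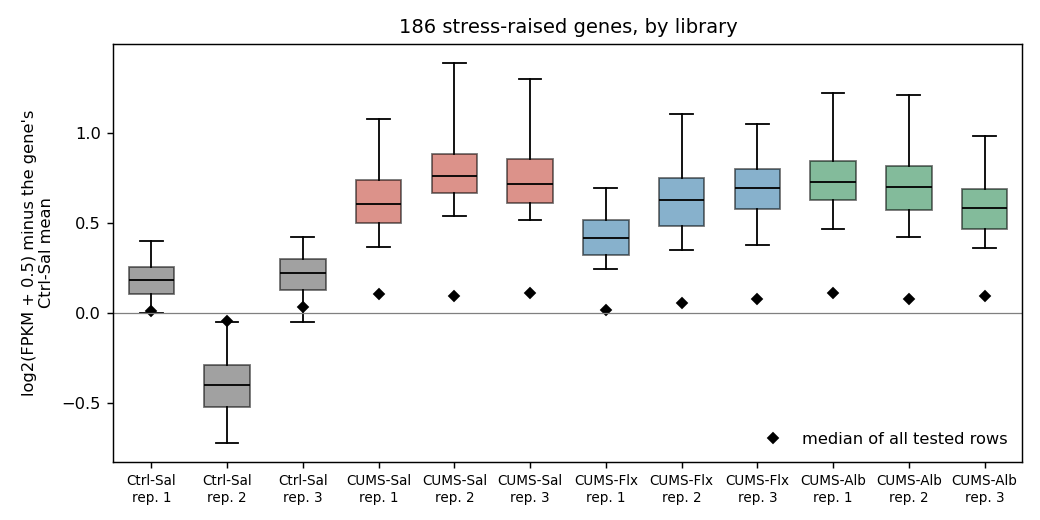
Each box spans the quartiles, with the median as a line and whiskers at the 5th and 95th percentiles, of log2(FPKM + 0.5) minus the gene's Ctrl-Sal mean for the 186 genes, in each of the 12 libraries (rep., replicate); diamonds mark the median of all 15253 tested rows. Ctrl-Sal replicate 2 lies at -0.40 and the other Ctrl-Sal libraries at 0.19 and 0.22, while the stressed libraries lie between 0.42 (CUMS-Flx replicate 1) and 0.76 (CUMS-Sal replicate 2).

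Most of the increases were modest. The ratio of the CUMS-Sal to the Ctrl-Sal mean had a median of 1.65, with quartiles of 1.55 and 1.78, and ran from 1.5 to 8.57. It was at least 2 for 26 genes and at least 3 for 7. The distance between the groups was narrow for many genes, since the lowest stressed library exceeded the highest Ctrl-Sal library by a median factor of 1.09, with the widest at 1.71. Among all 12750 expressed rows, 7.84% had all 9 stressed libraries above all 3 Ctrl-Sal libraries, and 5.44% had a CUMS-Sal mean at least 1.5 times that of Ctrl-Sal. The rule used this contrast, so these counts describe the genes and test nothing.

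The thresholds cut through a continuous range. Just inside, 2 genes had a ratio of 1.5, and just outside, 2 genes that met every other criterion had 1.499. The smallest distance inside the rule was a lowest stressed library 1.0003 times the highest Ctrl-Sal library, and the nearest outside was 0.9998 times. The smallest part of the stress difference present under a drug was 50.36% inside and 49.78% outside. Beyond the edge, 717 genes kept the groups apart and both drug means above the midpoint but had a ratio under 1.5, and 192 genes met all criteria but the separation of libraries. Another 26 genes were separated and raised at least 1.5-fold but were left out by a drug mean, 21 by CUMS-Flx alone, 3 by CUMS-Alb alone and 2 by both. The same rule turned downward, for genes lower in all stressed libraries and still low under both drugs, held 15 genes.

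The steepest ratios belonged to rare transcripts. ENSRNOG00000055316, a gene of 127 bp with the largest ratio, was at 0.534, 0 and 0 FPKM in Ctrl-Sal and at 1.51, 1.54 and 1.53 FPKM in CUMS-Sal. Under the drugs it was at 0.916, 0.942 and 2.17 FPKM in CUMS-Flx and at 1.53, 2.30 and 1.83 FPKM in CUMS-Alb. All 9 stressed libraries thus lay above the Ctrl-Sal libraries, but the values rest on 1 read in the whole Ctrl-Sal group and 9 reads in CUMS-Sal, a ratio per total reads of 9.02 with an exact 95% interval, for counting error only, of 1.25 to 395.2. ENSRNOG00000047447, of 354 bp and with the second largest ratio of 7.29, was at 0.575, 0 and 0.175 FPKM in Ctrl-Sal and at 2.17, 1.28 and 2.02 FPKM in CUMS-Sal. It was at 0.986, 0.845 and 1.40 FPKM in CUMS-Flx and at 1.10, 1.49 and 1.80 FPKM in CUMS-Alb. Its reads numbered 4 in Ctrl-Sal against 30 in CUMS-Sal, for a ratio of 7.51 with an interval of 2.65 to 29.4, so the size of its increase is known only within wide bounds. For both genes the reads and length are the smallest that fit the values, and both may be too low by 1 shared factor. The intervals take the reads as recovered.

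On the scale of log2(FPKM + 0.5), where the change of a rare gene comes out too small, limma gave ENSRNOG00000055316 a difference of 1.67 (SE 0.292) between CUMS-Sal and Ctrl-Sal, with an adjusted p of 0.0183. For ENSRNOG00000047447 it was 1.68 (SE 0.263), with an adjusted p of 0.0161 by limma. Each was called in 12 of 15 settings, with adjusted p-values of 0.0109 to 0.126 and 0.0108 to 0.126. Leaving out CUMS-Sal replicate 2 ended the calls, with adjusted p-values by limma of 0.0741 and 0.0668, and leaving out CUMS-Sal replicate 3 did so too, with 0.0593 and 0.0566. These genes were picked for their ratio, so the p-values describe them and are no independent test of it.

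Other genes with large ratios had more reads and higher levels, with the separation that the rule requires of every member. A gene of 846 bp, the fifth largest ratio at 3.50, was at 1.20, 0.906 and 1.91 FPKM in Ctrl-Sal and at 4.45, 5.07 and 4.53 FPKM in CUMS-Sal. It was at 3.23, 3.60 and 4.18 FPKM in CUMS-Flx and at 3.68, 4.77 and 3.71 FPKM in CUMS-Alb, so its lowest stressed value was 1.70 times its highest Ctrl-Sal value. A gene of 402 bp with a ratio of 2.98 was at 2.03, 1.59 and 2.005 FPKM in Ctrl-Sal and at 4.13, 6.63 and 5.98 FPKM in CUMS-Sal. Under the drugs this gene was at 4.78, 3.72 and 4.40 FPKM in CUMS-Flx and at 4.68, 4.22 and 3.47 FPKM in CUMS-Alb. For the gene of 846 bp, CUMS-Flx lay wholly below CUMS-Sal and CUMS-Alb overlapped it in part. For the gene of 402 bp, both drug groups overlapped the lower end of the CUMS-Sal range. In Ctrl-Sal replicates 1 to 3 the gene of 846 bp had 15, 12 and 26 reads, and that of 402 bp had 12, 10 and 13. Both genes were chosen after their values were seen.

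Of the 26 genes raised at least 2-fold, 22 averaged under 10 FPKM. The most abundant of the 26, a gene of 1679 bp with a ratio of 2.001, was at 24.8, 10.5 and 30.9 FPKM in Ctrl-Sal and at 41.5, 45.7 and 45.4 FPKM in CUMS-Sal. It was at 31.0, 41.4 and 39.4 FPKM in CUMS-Flx and at 43.8, 40.9 and 35.2 FPKM in CUMS-Alb. Ctrl-Sal replicate 2 was less than 0.5 times either other Ctrl-Sal library for this gene, and CUMS-Flx replicate 1 stood only just above Ctrl-Sal replicate 3. A gene of 2121 bp and 21.8 FPKM, with a ratio of 2.29, showed the same order, at 13.6, 5.57 and 15.8 FPKM in Ctrl-Sal and at 24.2, 28.8 and 27.1 FPKM in CUMS-Sal. Its CUMS-Flx values were 16.4, 24.98 and 26.8 FPKM and its CUMS-Alb values 26.8, 27.5 and 23.6 FPKM.

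The abundant genes were raised less steeply. Of the 186, 18 averaged at least 50 FPKM, 85 at least 10 and 19 under 2, and the median was 8.19 FPKM against 10.8 FPKM for all expressed rows. The most abundant, of 1136 bp and 267.4 FPKM, had a ratio of 1.61. It was at 216.4, 121.2 and 204.7 FPKM in Ctrl-Sal, at 266.1, 310.4 and 299.2 FPKM in CUMS-Sal, at 258.1, 311.2 and 314.2 FPKM in CUMS-Flx and at 327.1, 309.0 and 271.1 FPKM in CUMS-Alb. The 3 stressed groups overlapped one another throughout and lay above all Ctrl-Sal libraries, of which replicate 2 was far the lowest. The next in level averaged 108.2 FPKM (4423 bp, ratio 1.502), 105.8 FPKM (1890 bp, ratio 1.71) and 104.2 FPKM (1546 bp, ratio 1.53).

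**Figure D2:**
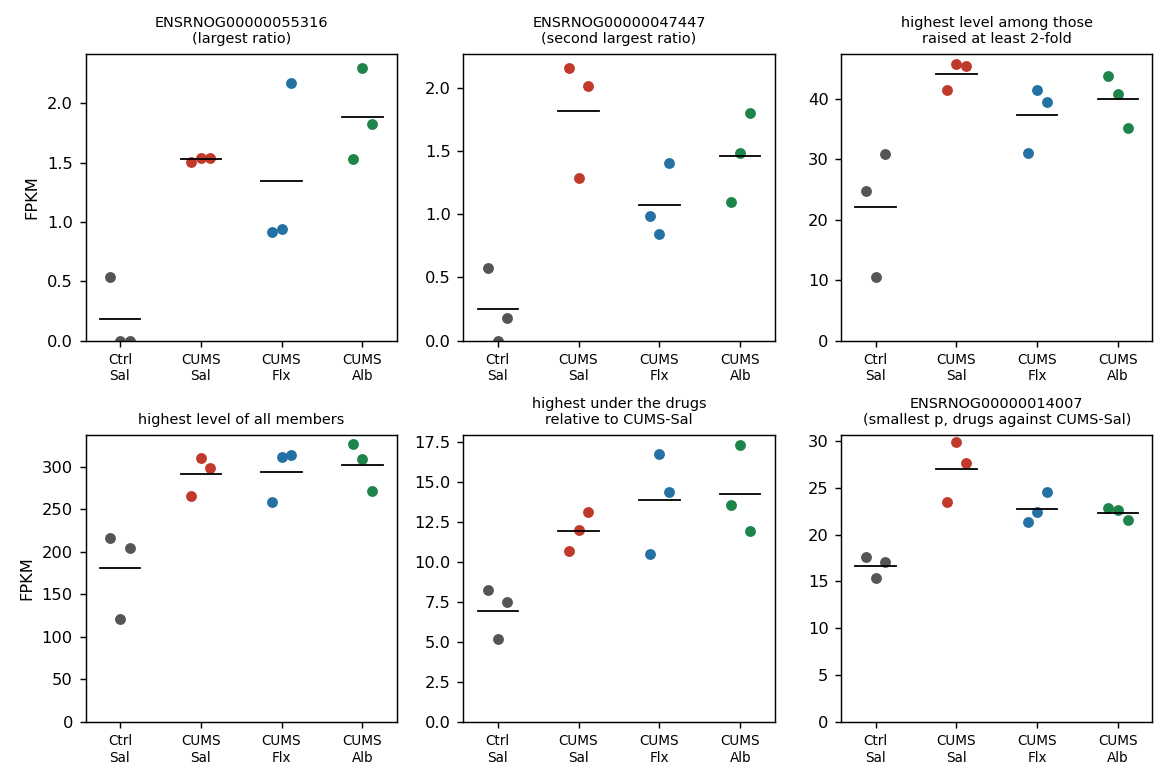
FPKM (vertical axes, from 0) of 6 of the 186 genes in the 4 groups, with each dot 1 library in the order of replicates 1 to 3 and each line the mean of 3 libraries. In all 6 panels Ctrl-Sal replicate 2 is the lowest Ctrl-Sal library or ties for it at 0, and every stressed library lies above every Ctrl-Sal library, as the rule requires.

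Ctrl-Sal replicate 2 set much of the size of the differences. It was the lowest Ctrl-Sal library in 174 of the 186 genes (93.5%), against 49.3% of all expressed rows, and its level was a median of 0.626 times the mean of replicates 1 and 3, against 0.951 over all expressed rows. The CUMS-Sal mean was a median of 2.33 times the level of Ctrl-Sal replicate 2, but 1.47 times that of replicate 1 and 1.44 times that of replicate 3. It reached 1.5 times the level of replicate 2 in 184 genes, of replicate 1 in 83 and of replicate 3 in 74. Set against the mean of replicates 1 and 3 alone, the median ratio was 1.47, and 75 genes still had a ratio of at least 1.5, among them all 26 with a ratio of at least 2. The median coefficient of variation of the 186 genes was 25.9% in Ctrl-Sal, against 9.14% in CUMS-Sal, 12.4% in CUMS-Flx and 8.80% in CUMS-Alb. Over all expressed rows it was 10.8%, 7.33%, 7.71% and 6.38% in the same order. The rule used these Ctrl-Sal values, and 1 low Ctrl-Sal library helps a gene reach the ratio of 1.5. The comparisons of Ctrl-Sal with all expressed rows are therefore descriptions.

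With the whole rule applied to the 11 libraries without Ctrl-Sal replicate 2, 78 genes met it, of which 61 were among the 186 (32.8% of these). Those 61 had a median ratio of 1.79, a median level of 3.97 FPKM and a median length of 1783 bp. The 125 genes that no longer met it had a median ratio of 1.60, a median level of 12.3 FPKM and a median length of 2643 bp. By their medians the retained genes were rarer and shorter and had larger ratios, but the ranges overlapped. The genes that dropped out had ratios of up to 7.29, the value of ENSRNOG00000047447. Leaving out another Ctrl-Sal library widened the set, to 390 genes without replicate 1 and 589 without replicate 3, and leaving out CUMS-Flx replicate 1 gave 336. Of the 186 genes, 45 met the rule in each of the 12 tables that lack 1 library. After the library medians were set equal, 84 genes met it, 79 of them among the 186, and after quantile normalization 94 did, 84 of them among the 186. Under every one of these settings 37 genes met the rule, with a median ratio of 1.84, a median level of 5.21 FPKM and a median length of 1725 bp.

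**Figure D3:**
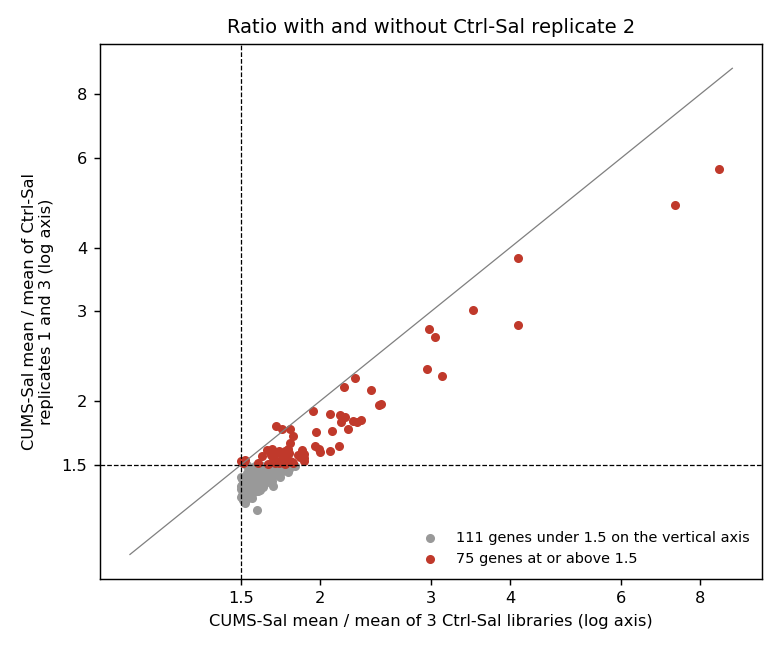
Each point is 1 of the 186 genes: the ratio of the CUMS-Sal mean to the mean of all 3 Ctrl-Sal libraries (horizontal, log axis) against the same ratio with only Ctrl-Sal replicates 1 and 3 (vertical, log axis). The solid line marks equal ratios and the dashed lines 1.5; 111 genes lie under 1.5 on the vertical axis and 75 at or above it, and nearly all points lie under the line of equal ratios.

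The 12 genes in which Ctrl-Sal replicate 2 was not the lowest Ctrl-Sal library had a median ratio of 1.72, and of 1.76 against replicates 1 and 3 alone. They were mostly rare, with a median of 3.53 FPKM and 9 of the 12 under 5 FPKM. One of the genes at the edge of the rule shows the pattern at a ratio of 1.5, with 3.83, 3.88 and 3.56 FPKM in Ctrl-Sal and 5.59, 5.69 and 5.63 FPKM in CUMS-Sal. Under the drugs it was at 4.77, 5.18 and 4.94 FPKM in CUMS-Flx and at 4.85, 5.29 and 5.79 FPKM in CUMS-Alb. The libraries of each group lay close together in this gene, the CUMS-Flx group lay wholly below CUMS-Sal, and CUMS-Alb had 2 libraries below CUMS-Sal and 1 above it.

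Within the groups the 186 genes rose and fell together from library to library. After the group means were removed, the mean correlation between pairs of these genes over 12 libraries was 0.64, against 0.04 for all expressed rows. Without Ctrl-Sal replicate 2 it was 0.39 against 0.03, and without CUMS-Flx replicate 1 as well it was 0.25 against 0.02. Over the 9 stressed libraries alone, it was 0.43 for the 186 genes, 0.17 for the 717 separated genes with smaller ratios and 0.04 for all expressed rows. These are descriptions across genes that share libraries and depth, and the rule, by asking that libraries not overlap, selects on them. Single libraries carried much of the shared movement. CUMS-Sal replicate 1 was the lowest of its group in 125 of the 186 genes, CUMS-Flx replicate 1 in 158 and CUMS-Alb replicate 3 in 122. Over all expressed rows they were the lowest of their groups in 34.2%, 50.5% and 36.9%, in the same order. CUMS-Flx replicate 1 was the lowest of all 9 stressed libraries in 122 genes (65.6%), against 32.0% of all expressed rows.

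In the limma fit over all 15253 rows of at least 0.5 FPKM, a call means a Benjamini-Hochberg adjusted p under 0.05. CUMS-Sal was called higher than Ctrl-Sal in 167 of the 186 genes, with 8.05% of all tested rows called higher. The 19 others had adjusted p-values of 0.0501 to 0.117 by limma, and a median of 4.39 FPKM. CUMS-Alb was called higher than Ctrl-Sal in 84 genes, with 2.18% of all tested rows called, and CUMS-Flx in 1, with 0.0328% of all tested rows called. That gene is the one of 846 bp described above, with a log2 difference of 1.21 (SE 0.175) and an adjusted p of 0.0298 by limma, and it was singled out after its values were seen. The ratio to the Ctrl-Sal mean was at least 1.5 in 103 genes under fluoxetine, with 2.23% of all expressed rows, and in 150 under albiflorin, with 4.55%. The 3 comparisons share the Ctrl-Sal libraries, and the rule used all of them, so these counts are descriptions. They also moved widely with single libraries: the 167 calls became 87 when Ctrl-Sal replicate 2 was left out, and 64, 0 and 5 when CUMS-Sal replicates 1, 2 and 3 were. The 84 calls became 2 and 172 when Ctrl-Sal replicates 2 and 3 were left out, and 0 when any 1 CUMS-Alb library was.

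The median log2 difference of the 186 genes from Ctrl-Sal was 0.68 in CUMS-Sal, 0.57 in CUMS-Flx and 0.67 in CUMS-Alb, beside 0.10, 0.05 and 0.09 for all tested rows. After centring each library on its median deviation, the calls against Ctrl-Sal were 106 in CUMS-Sal, 1 in CUMS-Flx and 4 in CUMS-Alb.

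The comparison of each drug group with CUMS-Sal asks how much of the stress difference was present after a week of treatment. Fluoxetine-treated rats had a median of 74.6% of it, with a range of 50.36% to 138.8%, and albiflorin-treated rats a median of 92.4%, with a range of 54.43% to 147.1%. The rule sets the lower end of both ranges and bears on the medians too. It left out 26 genes for a drug mean under the midpoint, with medians of 44.9% under fluoxetine and 66.3% under albiflorin. The medians of the 186 therefore describe the chosen genes only. Without Ctrl-Sal replicate 2 the medians were 68.8% and 90.3%, and 164 and 183 of the 186 genes reached the midpoint. Without CUMS-Flx replicate 1, the CUMS-Flx median was 86.5%. The ratio of the drug mean to the CUMS-Sal mean had a median of 0.900 under fluoxetine, beside 0.963 over all expressed rows, and 0.969 under albiflorin, beside 0.992.

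**Figure D4:**
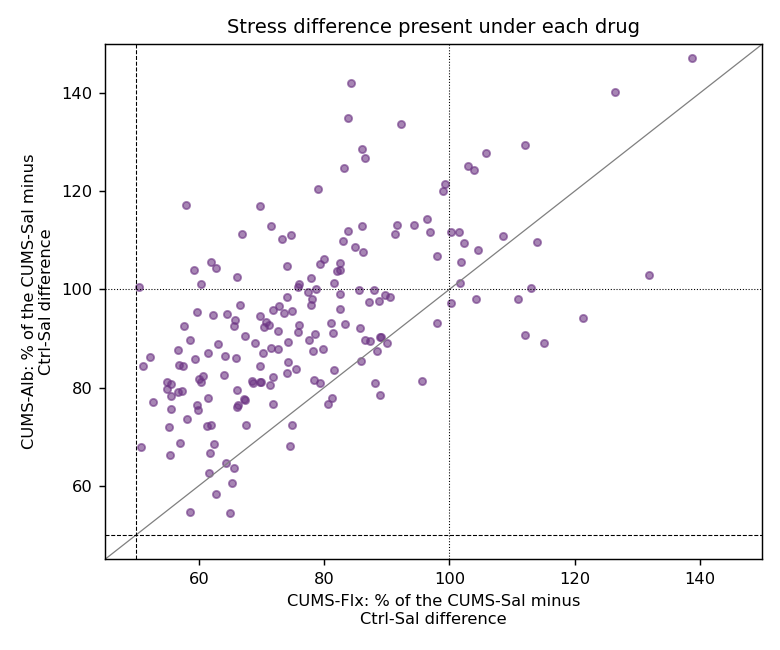
Each point is 1 of the 186 genes: the percentage of its CUMS-Sal minus Ctrl-Sal difference in mean FPKM that was present in CUMS-Flx (horizontal) and in CUMS-Alb (vertical). Dashed lines mark the 50% the rule requires, dotted lines 100%, and the solid line equal percentages; most points lie above the solid line, and 16 lie at or beyond 100% on both axes.

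Under fluoxetine the mean was at or above that of CUMS-Sal in 22 of the 186 genes, while 33.6% of all expressed rows were so. Under albiflorin it was at or above CUMS-Sal in 59 genes, while 45.3% of all expressed rows were so, and 16 genes were so under both drugs. The gene highest under the drugs relative to CUMS-Sal, of 1203 bp, was at 8.24, 5.15 and 7.47 FPKM in Ctrl-Sal and at 10.7, 12 and 13.1 FPKM in CUMS-Sal. It was at 10.5, 16.8 and 14.4 FPKM in CUMS-Flx and at 13.6, 17.4 and 11.97 FPKM in CUMS-Alb, with 138.8% and 147.1% of the stress difference. Both drug groups spread across and beyond the CUMS-Sal range, and limma gave log2 differences from CUMS-Sal of 0.19 (SE 0.190, adjusted p 0.764) and 0.24 (SE 0.190, adjusted p 1.0).

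No gene of the 186 was called between a drug group and CUMS-Sal by limma, and 0% of all 15253 tested rows were called in either direction. At an unadjusted p under 0.05, 7 of the 186 were lower under fluoxetine, with 7.76% of all tested rows, and 0 were higher, with 2.22%. Under albiflorin 2 were lower, with 2.01% of all tested rows, and 0 were higher, with 1.66%. These shares are near or under those of all rows. The median log2 difference of the 186 genes from CUMS-Sal was -0.15 under fluoxetine, beside -0.05 for all tested rows, and -0.04 under albiflorin, beside -0.01. Choosing genes by a high CUMS-Sal mean favours such negative values. The standard error of a single gene's difference had a median of 0.164 and ran from 0.084 to 0.395, so that differences of the median size could not be seen gene by gene. Limma-voom on the recovered reads also called 0 of the 183 genes it could test in both comparisons.

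By ranges, the CUMS-Flx libraries lay wholly below the CUMS-Sal libraries in 37 of the 186 genes, with 14% of all expressed rows so, and wholly above in 1, with 4.36%. Without CUMS-Flx replicate 1 they lay wholly below in 39, with 17.6% of all expressed rows. The CUMS-Alb libraries lay wholly below in 10 genes, with 6.62% of all expressed rows, and wholly above in 1, with 4.74%. The gene of smallest p in both comparisons, ENSRNOG00000014007, of 1473 bp, was at 17.6, 15.4 and 17.1 FPKM in Ctrl-Sal and at 23.5, 29.9 and 27.7 FPKM in CUMS-Sal. It was at 21.3, 22.4 and 24.5 FPKM in CUMS-Flx and at 22.8, 22.7 and 21.6 FPKM in CUMS-Alb. All CUMS-Alb libraries lay below all CUMS-Sal libraries and the CUMS-Flx libraries overlapped them in part, with 58.7% and 54.7% of the stress difference present under fluoxetine and albiflorin. Limma gave a log2 difference of -0.24 under fluoxetine (SE 0.0905, p 0.0211, adjusted p 0.428) and of -0.26 under albiflorin (SE 0.0905, p 0.0129, adjusted p 1.0), neither of them called. Over the alternatives the adjusted p ran from 0.357 to 0.83 and from 0.712 to 1.0.

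The drug groups differed from each other, at the median gene, by less than the standard error of a single gene. The CUMS-Alb mean was above the CUMS-Flx mean in 160 of the 186 genes, while 65.1% of all expressed rows were so. Without CUMS-Flx replicate 1 it was above in 112 genes (60.2%), while 57.8% of all expressed rows were so. The CUMS-Alb libraries lay wholly above the CUMS-Flx libraries in 8 genes, with 10.8% of all expressed rows so, and wholly below in 1, with 3.18%. By limma 0 of the 186 genes were called, with 0% of all tested rows called higher and 0.00656% lower, the smallest adjusted p among them was 0.955, and 0 passed an unadjusted p of 0.05, with 4.05% of all rows higher and 0.931% lower at that level. Limma-voom called 0 as well. The median log2 difference of CUMS-Alb minus CUMS-Flx was 0.10, beside 0.04 for all tested rows, and it was 0.02 without CUMS-Flx replicate 1. With 3 libraries a group and possibly unequal doses, no difference between the drugs in these genes was detectable, which does not show that they act alike.

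Among the 186 genes, larger ratios went with shorter length and lower level, in a set that the rule had cut at a ratio of 1.5. Lengths, recovered from the FPKM values, had a median of 2364 bp in the 186 genes and 2148 bp in all expressed rows. Genes whose 9 stressed libraries all lay above Ctrl-Sal were more common among longer genes, making up 4.73% of expressed rows under 1639 bp, 11.6% of those above 2814 bp and 7.20% of those in between, which are classes of about equal size. The 186 genes made up 1.36%, 1.41% and 1.60% of the short, middle and long class, and their median ratio was 1.71, 1.68 and 1.60. By level they made up 1.93% of expressed rows under 5.97 FPKM, 1.39% of those in between and 1.06% of those above 18.9 FPKM, with 22, 1 and 3 genes of a ratio of at least 2. Of the genes in the 3 level classes, 48 of 82, 20 of 59 and 7 of 45 kept a ratio of 1.5 against Ctrl-Sal replicates 1 and 3 alone. Spearman correlations across the 186 genes, given as a description, were -0.34 between ratio and length and -0.38 between ratio and level. Rare genes have fewer reads and noisier ratios: 9 of the 186 had under 10 reads in some Ctrl-Sal library and 32 had under 30.

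**Figure D5:**
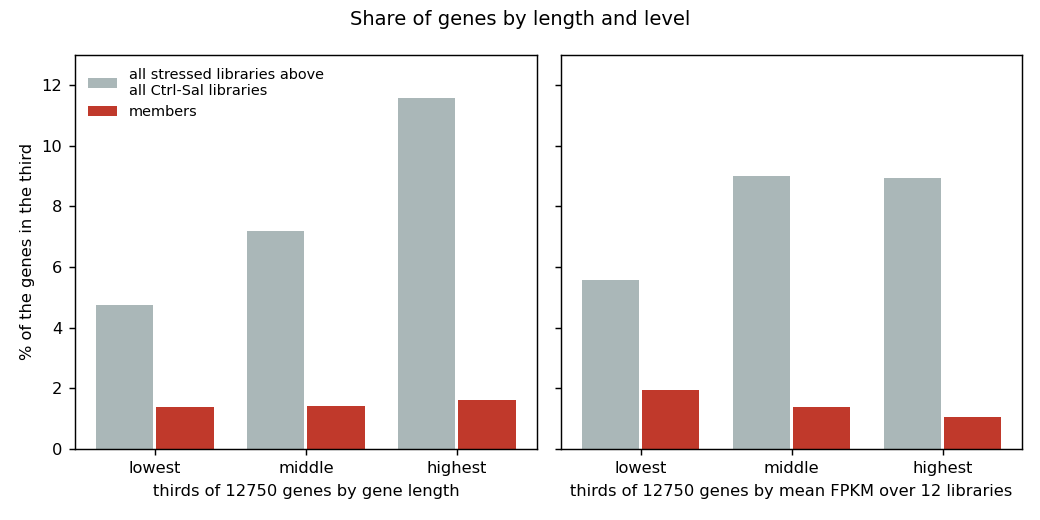
Bars, from 0, give the percentage of the 12750 expressed Ensembl rows in 3 classes of equal size by gene length (left) and by mean FPKM (right) that had all 9 stressed libraries above all 3 Ctrl-Sal libraries (grey) or belonged to the 186 genes (red). The grey bars climb with length from 4.73% to 11.6%, while the red bars differ little by length and fall from 1.93% to 1.06% with level.

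The part of the stress difference present under the drugs differed little by length or level. Its medians in the short, middle and long class were 74.4%, 74.1% and 75.6% under fluoxetine and 90.1%, 89.7% and 94.2% under albiflorin. In the low, middle and high class by level they were 71.5%, 75.9% and 78.0% under fluoxetine and 89.0%, 92.9% and 95.1% under albiflorin. It was lower than in the 717 separated genes of smaller ratio. The 717 had medians of 87.7% under fluoxetine and 102.8% under albiflorin, against 74.6% and 92.4% in the 186. These sets were split by the ratio of CUMS-Sal to Ctrl-Sal, and the percentage is divided by the difference of the same means. The contrast thus depends on how the genes were chosen and tests nothing. Compared with the 717, the 186 were shorter (medians of 2364 and 2973 bp) and rarer (8.19 and 15.9 FPKM). Ctrl-Sal replicate 2 was lower in the 186, at 0.626 times the other Ctrl-Sal libraries against 0.859 times in the 717. The Ctrl-Sal mean behind the ratio includes replicate 2, so splitting the genes by ratio favours this.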

How the data were processed

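The authors deposited 1 table of FPKM values for 12 libraries and 28959 rows. Its header names no unit, and FPKM was read from the values, each a whole multiple of what 1 read is worth for that gene. The submitters' processing notes name TopHat2 and, as build, rn6. Not given in the sources used here are its version, the read counter, the annotation and the strand setting, so reads shared by overlapping or near-identical genes could not be set apart. Per the labels' protocols, hippocampi were frozen in liquid nitrogen, and 3 µg of TRIzol-extracted RNA went into a library of the usual Illumina kind.

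Groups were taken from the sample titles. Gene lengths and reads were recovered from the FPKM values for 22737 of 22737 rows above 0. The tolerance was 0.001 read, or 3e-08 of the reads where that was larger. The smallest length that fitted was taken, so for a gene of few reads the length and all reads may be too low by 1 shared factor. No library pair of a group differed by as little as counting noise. Limma 3.58.1 (R 4.3.3, variance trend, robust) was fitted to log2(FPKM + 0.5) of 15253 rows averaging at least 0.5 FPKM, with 1 coefficient per group, and adjusted over all of them. Recovery, rule and fit were also run on simulated data, with results not given here. The simulated libraries all had the same noise and none stood apart, unlike Ctrl-Sal replicate 2 and CUMS-Flx replicate 1. That run therefore does not show how rule and fit behave with such libraries. Python 3.11.15, numpy 2.4.6, pandas 2.3.3, scipy 1.17.1 and matplotlib 3.10.9 were used for the rest. The plan allowed for counts or FPKM, and its FPKM version applied.

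The members and lists were chosen with earlier results of these data known. Gene lists and cell type markers had been listed, but 0 IDs matched a symbol and they were not used. The rule for named genes asked for the largest ratios, the highest levels, the highest drug levels, the smallest p in the drug comparisons and the genes at the thresholds, by ID with at most 2 that rose. Other genes of the rule are given by length without ID, and those of 846, 402 and 2121 bp and the most abundant one raised 2-fold were chosen after their values were seen. Limma-voom on the recovered reads of genes averaging 10 or more, rescaling outside the abundant genes, medians set equal without Ctrl-Sal replicate 2, and the counts without CUMS-Flx replicate 1 were alternatives added after seeing the data.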

Additional observations from a re-analysis of the deposited data

How the results depend on the processing

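The rule gave 186 genes. It gave 468 with a ratio of at least 1.3, 26 with at least 2, 115 with a mean of at least 5 FPKM, 84 with library medians set equal, 94 after quantile normalization and 39 without Ctrl-Sal replicate 2 and with medians set equal. Leaving out 1 library gave 78 (Ctrl-Sal replicate 2) to 589 (Ctrl-Sal replicate 3). Members called in CUMS-Sal against Ctrl-Sal went from 167 to 52 with no filter beyond a mean above 0, 86 after quantile normalization, 106 with each library's median deviation set to 0 and 0 when only the groups compared were fitted, and ranged from 0 to 175 without 1 library. In CUMS-Flx against Ctrl-Sal, 1 became 0 with no filter, at a minimum of 5 FPKM, without trend and robust settings and with only the groups compared, 5 after quantile normalization and 11 by limma-voom, and ranged from 0 to 87 without 1 library (87 without Ctrl-Sal replicate 3). In CUMS-Alb against Ctrl-Sal, 84 became 0 with no filter, without trend and robust settings and with only the groups compared, 19 after quantile normalization, 4 with median deviations set to 0 and 148 by limma-voom, and ranged from 0 to 172 without 1 library. Whether the replicate numbers pair the libraries is not known. Same-numbered deviations had correlations of -0.16 to 0.13, which with 3 libraries a group cannot settle it. With the replicate number as a block the calls were 101, 0 and 0 in these comparisons. In the comparisons among stressed groups the members called were 0 in every alternative run, without 1 library too (0 to 0). Without 1 library, the median log2 difference ranged from -0.197 to -0.072 for CUMS-Flx minus CUMS-Sal, from -0.082 to 0.005 for CUMS-Alb minus CUMS-Sal (above 0 without CUMS-Alb replicate 3), and from 0.019 (without CUMS-Flx replicate 1) to 0.16 for CUMS-Alb minus CUMS-Flx. With median deviations set to 0, these were -0.092, -0.033 and 0.062. The cause of these changes was not tested. A library left out leaves 2 in its group, whose spread is pooled with the rest. The genes of fewest reads could not be fitted by limma-voom.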

Other observations

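Among rows that carry no Ensembl ID, 848 averaged at least 1 FPKM, and 15 of them (1.8%) met the rest of the rule. Their median ratio of CUMS-Sal to Ctrl-Sal was 1.66, or 1.52 against Ctrl-Sal replicates 1 and 3 alone, and their median level was 1.67 FPKM. They had a median of 78.3% of the stress difference under fluoxetine and 94.2% under albiflorin. Ctrl-Sal replicate 2 was the lowest Ctrl-Sal library in 12 of the 15.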
